A study of Mus musculus with 12 samples.

Results

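Collagens are the triple-helical proteins of the extracellular matrix, and the 44 collagen genes measured here, of 19938 genes in all, are the genes whose single annotated symbol is Col followed by a type number, the letter a and a chain number. Of several probe sets for a gene, the one with the greatest average log2 value represented it. The genes were described in 3 classes: 11 fibrillar collagens, 8 basement membrane collagens and 25 others, which comprise fibril-associated, beaded filament, network-forming, transmembrane and anchoring fibril collagens and types XXVI and XXVIII. Col21a1 was not analysed here.

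RNA came from 4 groups of 3 arrays each: uterus of E2-treated mice, uterus of oil-treated mice, oviduct of E2-treated mice and oviduct of oil-treated mice. Mated mice received a subcutaneous injection every day on days 0.5 to 2.5 post-coitum and were dissected on day 3.5. The dose was 10 µg/kg of 17β-estradiol (E2), about 250 ng for each mouse and day, or 0 µg/kg, in 100 µl of sesame oil, so that all groups received the vehicle. Oviducts and uterine horns were flushed, frozen whole and extracted with TRIzol. Neither a strain nor an age is given for the mice, and no transgene is named. The study asked how E2 in early pregnancy alters gene expression in oviduct and uterus. Lower doses were not analysed here.

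Fibrillar collagens, led by types I and III, form the load-bearing fibrils of stroma. Type IV collagen forms the sheet-like network of basement membranes beneath epithelium and around vessels and muscle, where types XV and XVIII are attached. Fibril-associated collagens such as types XII and XIV sit on the surface of fibrils, and type VI collagen forms beaded filaments between cells and fibrils. The uterine stroma is remodelled in early pregnancy, and estradiol is known to cause growth and swelling of the uterus.

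The arrays were alike within groups, with correlations between 0.984 and 0.996 and array medians between 89.5 and 92.9 intensity units. All values below are log2 intensities, and a difference of 1 is a 2-fold difference. Ciliated cell markers bore out the tissue labels: their mean level lay between 8.98 and 9.04 in E2 oviduct and between 8.63 and 9.67 in oil oviduct, against 6.004 to 6.17 in E2 uterus and 6.18 to 6.47 in oil uterus. The 3rd array of oil oviduct stood apart, with the 4 corpus luteum markers a median of 3.93 above the other arrays of its group. On the same array the 3 leukocyte markers differed from the others by a median of −0.83 and the 3 ciliated cell markers by 0.73. Its collagen genes were a median of 0.11 below the other 2 arrays, with 9 of 44 above them, against a median of −0.01 over all genes. The 3rd array of oil uterus was displaced in single collagens and in markers: the 6 smooth muscle markers lay a median of 0.50 above the other arrays of its group, all 6 of them higher, and the 3 leukocyte markers a median of 0.57 below, none of them higher. The 3rd array of E2 uterus was displaced in the 4 fat markers, with a mean level of 7.14 against 5.86 and 5.56 on the other arrays of its group. The part of these displacements in the collagen results was not tested. For E2 against oil and for uterus against oviduct in oil mice, collagen calls lost without an oil array numbered 3 are given below. Y-linked genes, which female tissue lacks, read at most 7.50 (Sry), or 5.36 without that gene. The higher bound rests on Sry alone. By it, 27 of 44 collagen genes were below background in all 4 group means and 12 were above in all. The matching share over all genes was not counted. Sizes of changes below the higher bound are uncertain. By the lower bound, 5.358, no collagen gene was below in all 4 group means. Col10a1 came nearest, with its highest group mean at 5.3645 in E2 uterus.

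Promoters of some of the genes called in E2 uterus are shown first. Col4a1 and Col4a2 encode the 2 chains of the most widespread type IV collagen and are known to be transcribed from a shared, divergent promoter. In RefSeq windows of assembly GRCm38.p6, from 250 bases before to 50 bases after each start, the Col4a2 window (chr8:11312555-11312854, plus strand) and the Col4a1 window (chr8:11312777-11313076, minus strand) overlap by 78 bases. Capitals mark those shared bases, which read as each other's reverse complement. The third window is that of Col6a4 (chr9:106096642-106096941, minus strand), the collagen gene with the largest E2 difference, and there capitals mark motifs.
Col4a2: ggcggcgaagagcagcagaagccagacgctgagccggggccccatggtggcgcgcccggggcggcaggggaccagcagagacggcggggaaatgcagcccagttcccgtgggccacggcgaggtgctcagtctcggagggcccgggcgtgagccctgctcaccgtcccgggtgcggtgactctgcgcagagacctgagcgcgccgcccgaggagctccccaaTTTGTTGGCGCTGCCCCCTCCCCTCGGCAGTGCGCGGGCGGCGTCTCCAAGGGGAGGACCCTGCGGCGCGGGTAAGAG
Col4a1: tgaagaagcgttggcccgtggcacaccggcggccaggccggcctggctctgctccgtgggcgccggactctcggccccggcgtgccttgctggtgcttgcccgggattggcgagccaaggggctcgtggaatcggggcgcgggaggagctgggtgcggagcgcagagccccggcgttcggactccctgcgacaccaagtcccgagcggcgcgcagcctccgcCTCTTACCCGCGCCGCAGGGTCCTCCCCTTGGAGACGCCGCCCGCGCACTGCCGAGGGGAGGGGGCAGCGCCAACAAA
Col6a4: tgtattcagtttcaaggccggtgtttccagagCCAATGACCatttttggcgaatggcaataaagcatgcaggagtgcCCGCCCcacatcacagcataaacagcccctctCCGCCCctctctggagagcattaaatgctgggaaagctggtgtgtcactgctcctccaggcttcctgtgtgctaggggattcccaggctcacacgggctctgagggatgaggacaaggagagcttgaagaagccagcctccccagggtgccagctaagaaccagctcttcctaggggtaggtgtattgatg

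In the Col6a4 window the capitals are, on either strand, GC boxes (GGGCGG), the box motif CCAAT and the 5-letter arm of an estrogen response element (GGTCA), and the last 2 share a base. Windows were found for 35 of the 44 genes, 38 windows in all, of 32851 in the genome-wide set, and Col12a1 and Col14a1 had none. GC boxes lay in 23 of 38 collagen windows, against 35.7% of all windows. CCAAT boxes lay in 13, against 37.4%, and TATA boxes (TATAAA) in 5, against 13.6%. The arm GGTCA lay in 14, against 40.5%. The full estrogen response element (GGTCANNNTGACC), which holds that arm on each strand, lay in 0 collagen windows, against 0.07%, and the AP-1 site (TGANTCA) in 1, against 7.81%. The median GC content was 59.9% in collagen windows and 52.7% in all windows. A match or its lack describes letters in these windows and shows nothing of binding.

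E2 treatment lowered 9 collagen genes in the uterus and raised 1. These are 20.5% and 2.27% of the 44, where 14.3% of all genes were called lower and 12.4% higher. Col6a4, which encodes a type VI chain, rose 3.45-fold. Col14a1, the fibril-associated type XIV collagen, fell to 0.519 times its oil level, and the basement membrane collagens Col18a1 and Col15a1 fell to 0.656 and 0.693 times theirs. The fibrillar Col3a1, Col5a2 and Col11a1 and the type IV genes Col4a1 and Col4a2 were also lower, as was Col26a1. The chains of type I collagen, Col1a1 and Col1a2, did not pass the test.

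The test was limma's moderated test over all 19938 genes, with a Benjamini-Hochberg adjusted p under 0.05 as the threshold. It called 20.5% of the collagen genes lower, where 14.3% of all genes were called lower, and 2.27% higher, where 12.4% of all genes were called higher. The median collagen difference was 0.0042, against −0.00070 over all genes. By class, 4 of 8 basement membrane, 3 of 11 fibrillar and 2 of 25 other collagens were lower, and the rise was among the others. Leaving out the 3rd oil uterus array gave 5 lower genes in place of 9. In whole tissue, fewer cells of a type and less RNA per cell cannot be told apart.

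**Figure D1:**
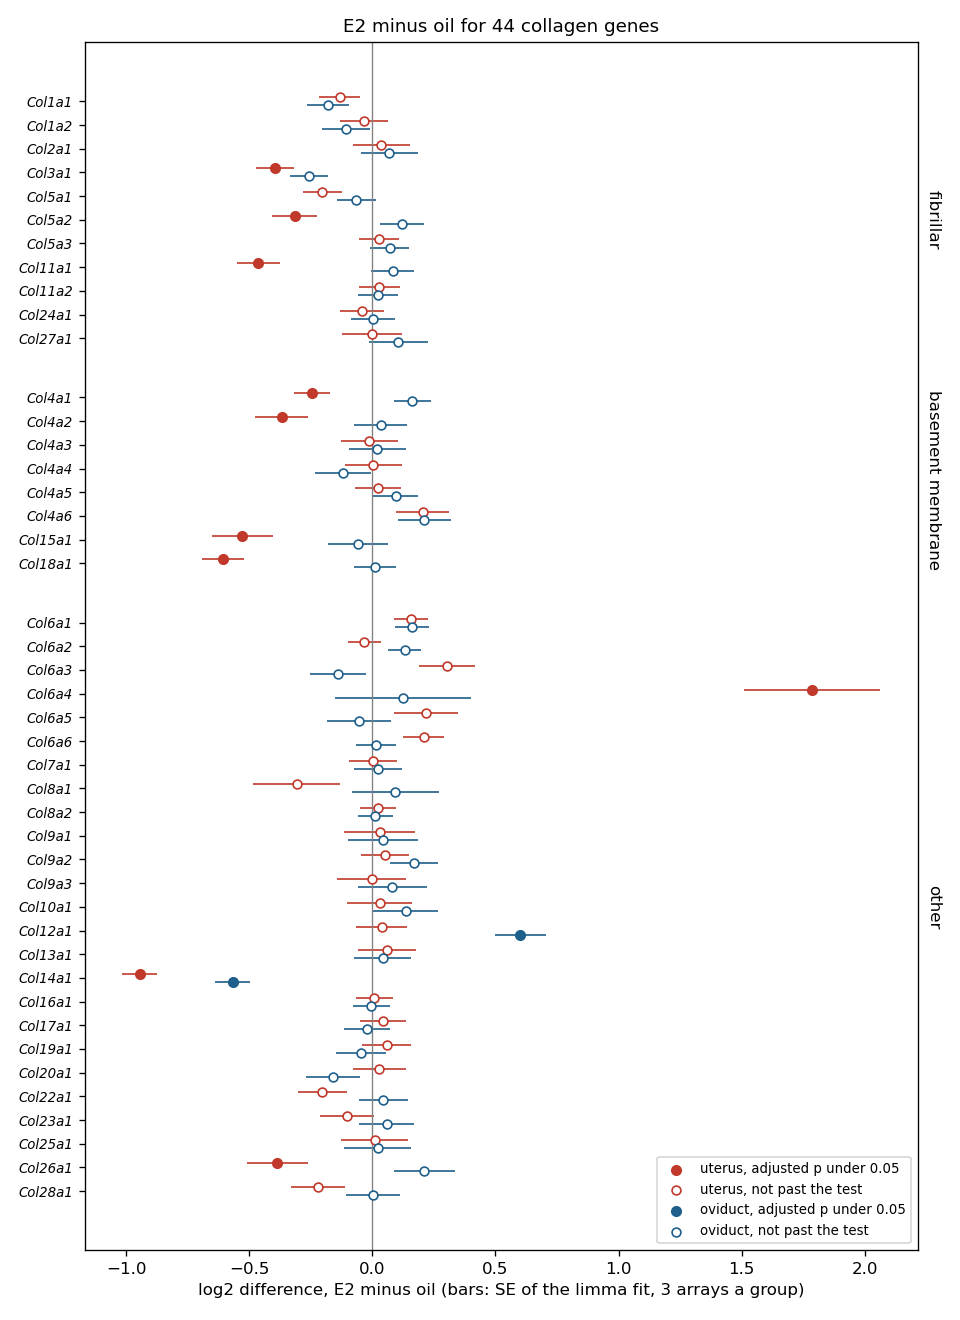
log2 difference of E2 minus oil for each of the 44 collagen genes, in uterus (red) and oviduct (blue), by class, with bars for the SE of the fit (3 arrays a group) and filled points for adjusted p under 0.05. In uterus Col6a4 stands at 1.79 and Col14a1 at −0.95, and most other points lie near 0.

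The beaded filament collagens contained the largest rise. Col6a4 read 10.38, 10.31 and 10.42 in E2 uterus, against 8.86, 8.79 and 8.10 in oil uterus. All E2 arrays were above all oil arrays, by more than 1 log2 unit. The difference was 1.79 ± 0.28 (SE, n = 3 each; adjusted p = 0.000555). The 3rd oil array lay 0.72 below the other 2, and the call was kept under all 24 alternatives, over which the difference ranged between 1.54 and 1.92. In the oviduct Col6a4 read 7.72, 7.81 and 8.08 with E2, against 8.20, 8.03 and 6.998 with oil, and the groups overlapped (0.13 ± 0.28, adjusted p = 0.92). Without the 3rd oil oviduct array the difference there was −0.25 (adjusted p = 0.84), so its direction rests on that array.

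The other type VI chains that form the common filament differed less. Col6a1 read 10.30, 10.38 and 10.39 in E2 uterus, against 10.18, 10.13 and 10.29 in oil uterus. The 2 groups did not overlap, but the difference of 0.16 did not pass (adjusted p = 0.12). Col6a2 read 10.28, 10.26 and 10.39 in E2 uterus, against 10.30, 10.26 and 10.46 in oil uterus, a difference of −0.03 with a 95% interval of −0.18 to 0.12. Col6a3 differed by 0.30 (adjusted p = 0.072).

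Col6a4, Col6a5 and Col6a6 lie next to each other in assembly GRCm38.p6, with no protein-coding gene between them, and Col6a5 and Col6a6 each have a second probe set. On the sets used for the genes, Col6a5 differed by 0.22 (adjusted p = 0.27) and Col6a6 by 0.21 (adjusted p = 0.086) in uterus. On the second sets the differences were 0.91 for Col6a5 (adjusted p = 0.0013) and 0.60 for Col6a6 (adjusted p = 0.0044), with the fit and adjustment over all probe sets. The second set of Col6a5 read 6.37, 6.38 and 6.67 in E2 uterus, against 5.63, 5.43 and 5.64 in oil uterus. That of Col6a6 read 7.27, 7.81 and 7.57 in E2 uterus, against 6.94, 6.98 and 6.91 in oil uterus. Every array of the second Col6a5 set and the oil arrays of the second Col6a6 set lay below 7.50, so these sizes are uncertain. In uterus E2 and oil did not overlap on either second set, and the probe sets of each gene disagree on the call. They also disagree between organs. The E2 effect, uterus minus oviduct, was 1.09 on the second Col6a5 set and 0.92 on that of Col6a6 (limma adjusted p = 0.0096 and 0.0073). In oil mice the second Col6a5 set was lower in uterus than in oviduct (−0.93, adjusted p = 0.00061). The used sets did not pass in these comparisons.

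**Figure D2:**
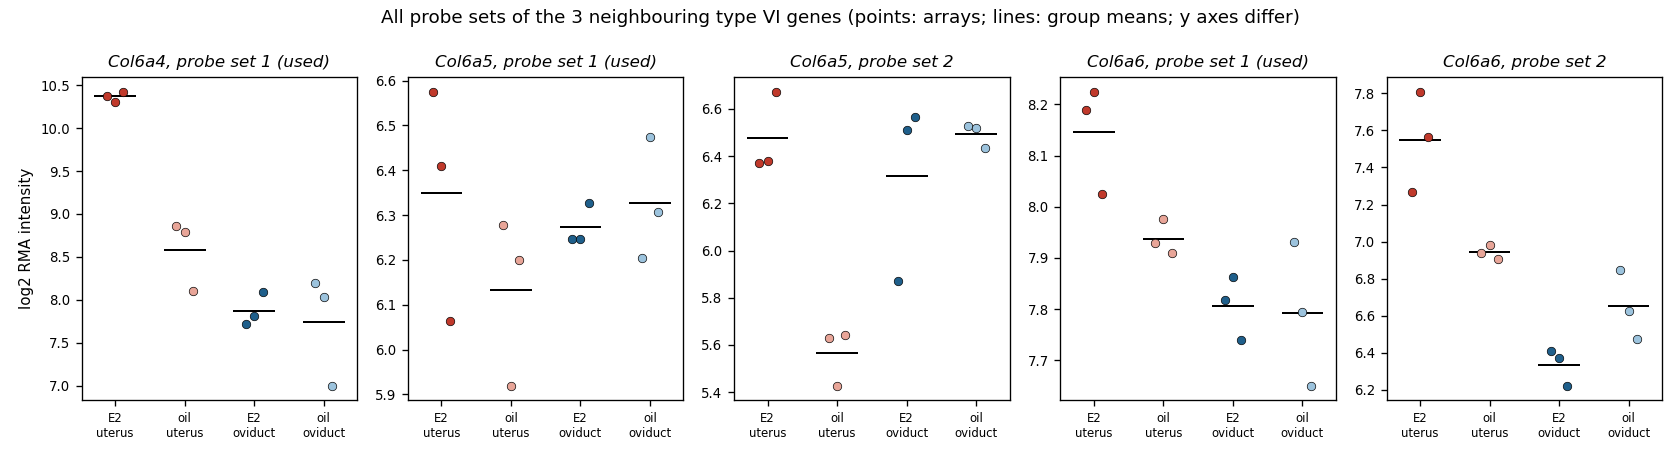
log2 intensity on each array (points) with group means (lines) for the 5 probe sets of Col6a4, Col6a5 and Col6a6, E2 and oil in uterus and then in oviduct, with y axes that differ. E2 uterus lies above oil uterus without overlap in every set except the used Col6a5 set, where the groups overlap.

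Among fibril-associated collagens Col14a1 was lowered in both organs. It read 8.77, 8.91 and 8.84 in E2 uterus, against 9.81, 9.78 and 9.78 in oil uterus. The groups were far apart against a spread of 0.072 (SD) in E2 and 0.016 in oil. The difference was −0.95 ± 0.07 (SE, n = 3 each; adjusted p = 2.66e-06), with a 95% interval of −1.10 to −0.79. In the oviduct it read 8.25, 8.18 and 8.09 with E2, against 8.82, 8.75 and 8.65 with oil, again without overlap (−0.57 ± 0.07, adjusted p = 0.0069). The oviduct call was lost without the 3rd E2 oviduct array (−0.53, adjusted p = 0.051) and when only oviduct arrays were fitted (adjusted p = 0.091). Col12a1, the related type XII collagen, had no difference past the test in uterus (0.04, adjusted p = 0.85).

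Basement membrane collagens were lower in E2 uterus in 4 of 8 genes. Col18a1 encodes the collagen from which endostatin is cut, and read 7.80, 7.87 and 7.68 in E2 uterus, against 8.34, 8.35 and 8.48 in oil uterus. The groups did not overlap (−0.61 ± 0.09, adjusted p = 0.00028). Col15a1, its close relative, read 9.46, 9.23 and 9.73 in E2 uterus, against 10.08, 10.09 and 9.83 in oil uterus. The highest E2 array was just below the lowest oil array (−0.53 ± 0.12, adjusted p = 0.0071). Both calls held under all 24 alternatives.

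The type IV pair fell by less. Col4a2 read 7.94, 7.94 and 7.77 in E2 uterus, against 8.17, 8.08 and 8.51 in oil uterus, and did not overlap (−0.37 ± 0.11, adjusted p = 0.025). Col4a1 read 8.65, 8.69 and 8.69 in E2 uterus, against 8.87, 8.82 and 9.08 in oil uterus, and did not overlap (−0.25 ± 0.07, adjusted p = 0.028). Both calls were lost without the 3rd oil uterus array, where Col4a2 differed by −0.24 (adjusted p = 0.078) and Col4a1 by −0.17 (adjusted p = 0.0999). With every uterine array kept, both were also lost when only uterine arrays were fitted (limma adjusted p = 0.064 for Col4a2 and 0.079 for Col4a1). The Col4a2 call was also lost without the 3rd E2 uterus array (−0.31, adjusted p = 0.089), and that of Col4a1 without any one of the 3 E2 uterus arrays (−0.25 to −0.23, adjusted p = 0.057 to 0.082). Col4a3 and Col4a4, the chains known from kidney basement membrane, differed by −0.01 and 0.0042 at levels below 7.50, and Col4a5 and Col4a6 by 0.02 and 0.20. None of these 4 passed.

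Fibrillar collagens were lower in 3 of 11 genes. Col3a1, type III collagen, read 10.23, 10.29 and 10.27 in E2 uterus, against 10.60, 10.61 and 10.77 in oil uterus. The groups did not overlap (−0.40 ± 0.08, adjusted p = 0.0027), and the call held under all 24 alternatives. Col11a1 read 6.55, 6.54 and 6.47 in E2 uterus, against 7.07, 6.88 and 7.01 in oil uterus, without overlap (−0.46 ± 0.09, adjusted p = 0.0019). Its level was below 7.50 on every array, so the size is uncertain, while the call held under all 24 alternatives. Col5a2, a chain that helps to start fibrils, read 8.30, 8.44 and 8.40 in E2 uterus, against 8.68, 8.70 and 8.71 in oil uterus, without overlap (−0.32 ± 0.09, adjusted p = 0.022). Its call was lost without any one of the 3 oil uterus arrays or without the 1st E2 uterus array, with differences between −0.32 and −0.28 and adjusted p between 0.052 and 0.084.

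Type I collagen did not pass the test. Col1a1 read 11.07, 11.10 and 11.02 in E2 uterus, against 11.25, 11.14 and 11.19 in oil uterus. No E2 array reached an oil array, but the difference of −0.13 had a 95% interval of −0.32 to 0.05. Col1a2 read 11.02, 11.04 and 10.99 in E2 uterus, against 11.11, 10.96 and 11.10 in oil uterus, with overlap (−0.04, interval −0.25 to 0.18). The intervals leave room for differences of up to about that size.

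Of the remaining collagens, Col26a1 read 6.99, 7.06 and 6.78 in E2 uterus, against 7.22, 7.14 and 7.64 in oil uterus, without overlap (−0.39 ± 0.12, adjusted p = 0.037). Its level lay below 7.50 except on that one oil array, and the call was lost without the 3rd oil array (−0.23, adjusted p = 0.12). It was also lost without the 1st or 3rd E2 uterus array (−0.41 and −0.31, adjusted p = 0.0697 and 0.13) and without the 3rd E2 oviduct array (−0.39, adjusted p = 0.053). With no array of the uterus left out, the Col26a1 call was lost when only uterine arrays were fitted (limma adjusted p = 0.091). The same held under the replicate block (limma adjusted p = 0.054). Col8a1 differed by −0.31 (adjusted p = 0.25) and its 3rd oil uterus array lay 0.78 above the others. All other collagens lay between −0.22 and 0.30 and did not pass.

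Several subclasses had no call in the uterus. The 4 transmembrane collagens, Col13a1, Col17a1, Col23a1 and Col25a1, had a median difference of 0.03 and none exceeded 7.37 on any array. Of the 3 network-forming collagens, Col8a1, Col8a2 and Col10a1, none exceeded 6.96. Col7a1, the anchoring fibril collagen that ties skin epithelium to its stroma, differed by 0.0043 and reached at most 7.16. The cartilage collagens Col2a1, Col9a1, Col9a2 and Col9a3 stayed at or below 7.21 on every array, so all of these lay under the Sry level. At that level a lack of calls does not show a lack of change.

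**Figure D3:**
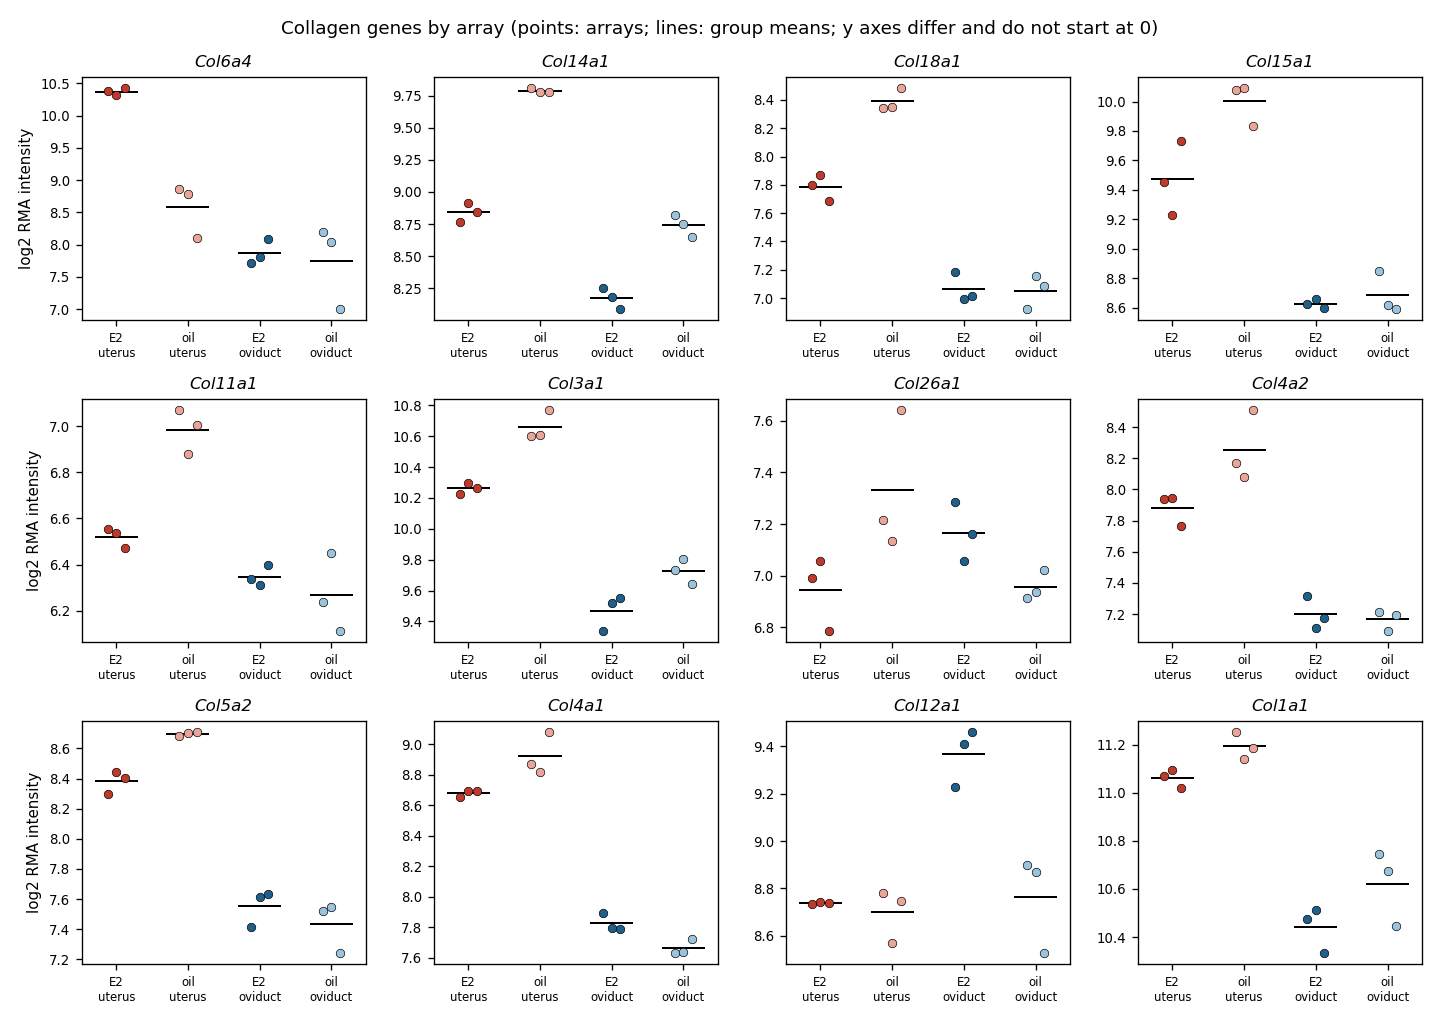
log2 intensity on every array (points) with group means (lines) for 12 collagen genes, E2 and oil in uterus and then in oviduct, on y axes that differ and do not start at 0. Col14a1 is lower with E2 in both organs, whereas Col6a4 is raised with E2 in uterus, at 10.31 to 10.42.

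In the oviduct, E2 changed 1 collagen gene in each direction, 2.27% of the 44 each way, where 0.16% of all genes were called higher and 0.13% lower. Few genes of any kind were called there, so the shares rest on 1 gene each. Col14a1 fell as given above. Col12a1 read 9.23, 9.41 and 9.46 in E2 oviduct, against 8.90, 8.87 and 8.53 in oil oviduct, without overlap, 1.52-fold higher (0.60 ± 0.10, adjusted p = 0.047). The call was lost when any single array of the 12 was left out. Without the 3rd oil oviduct array, which lay 0.36 below the others, the difference was 0.48 (adjusted p = 0.054). Neither type I chain passed in the oviduct. Col1a1 read 10.48, 10.51 and 10.33 in E2 oviduct, against 10.74, 10.68 and 10.44 in oil oviduct, with overlap (−0.18, 95% interval −0.36 to 0.0033). Col3a1 read 9.34, 9.52 and 9.55 in E2 oviduct, against 9.73, 9.81 and 9.64 in oil oviduct, without overlap, and did not pass (−0.26, adjusted p = 0.26). Col4a1 read 7.89, 7.80 and 7.79 in E2 oviduct, against 7.63, 7.64 and 7.73 in oil oviduct, a difference of 0.16 (adjusted p = 0.48).

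Whether the E2 effect differed between the organs was tested as its own term, uterine effect minus oviductal effect. It was higher for 1 and lower for 7 of 44 collagens (2.27% and 15.9%), where 5.71% of all genes were higher and 5.77% lower. The test shares the oil and E2 arrays with the effects above, and its values stand beside them. Col6a4 stood at 1.66 (adjusted p = 0.018), Col18a1 at −0.62 (adjusted p = 0.0066) and Col11a1 at −0.55 (adjusted p = 0.014). These 3 kept their calls under all 23 alternatives. Col26a1 (−0.60), Col12a1 (−0.56), Col5a2 (−0.44), Col4a1 (−0.41) and Col14a1 (−0.38) had adjusted p between 0.027 and 0.049. Leaving out single arrays cost Col26a1 its call for 11 of the 12 arrays, Col5a2 for 10, Col14a1 for 8, Col12a1 for 7 and Col4a1 for 7, with adjusted p as high as 0.12. Leaving out 1 array in turn gave between 2 and 5 lower collagens in place of 7. Col14a1 was therefore lowered in both organs, and its larger fall in uterus was not stable to the arrays. Col3a1 (−0.14), Col15a1 (−0.47) and Col4a2 (−0.40) did not pass this test (adjusted p = 0.54, 0.11 and 0.13), so their uterine falls were not shown to differ from the oviduct.

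Collagen genes were mostly higher in uterus than in oviduct. In oil mice 23 of 44 (52.3%) were called higher and 0 lower, where 21.5% of all genes were higher and 17.3% lower. The median difference was 0.31, against 0.04 over all genes. By class, 6 of 8 basement membrane, 8 of 11 fibrillar and 9 of 25 other collagens were higher, with medians of 0.81, 0.57 and 0.15. With 0 lower, 28 of the 44 had an unadjusted limma p under 0.05 in either direction, and other settings gave up to 2 lower. Without the 3rd oil uterus array Col22a1, Col26a1 and Col7a1 lost their calls (limma adjusted p = 0.072, 0.11 and 0.064). Col22a1 and Col5a3 lost theirs without the 3rd oil oviduct array (adjusted p = 0.056 and 0.069), and Col6a4 is given below. Some of these calls were also lost without other single arrays.

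Genes with large differences in oil mice were among those named above. Col18a1 read 8.34, 8.35 and 8.48 in oil uterus, against 6.92, 7.16 and 7.08 in oil oviduct, a difference of 1.34 (adjusted p = 2.81e-07). All its oviduct arrays lay below 7.50, so that size is uncertain. Col15a1 was 2.49-fold higher in oil uterus, where its lowest array was 9.83, than in oil oviduct, with 8.85, 8.62 and 8.59. Col4a1 was 2.40-fold higher in oil uterus than in oil oviduct. Col5a2 read 8.68, 8.70 and 8.71 in oil uterus, against 7.52, 7.55 and 7.24 in oil oviduct, a difference of 1.26 (adjusted p = 6.92e-07), also of uncertain size since the oviduct mean lay below 7.50. The uterine and oviductal arrays of all 4 genes did not overlap, and the calls held under all 24 alternatives. Type I collagen differed less between the organs, with Col1a1 1.49-fold and Col1a2 1.46-fold higher in uterus.

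In E2 mice 20 of 44 (45.5%) were higher in uterus and 1 (2.27%) was lower, where 18.9% of all genes were higher and 15.2% lower. Col6a4 was 5.66-fold higher in uterus than in oviduct (adjusted p = 3.08e-05), against 1.79-fold in oil mice (adjusted p = 0.031). The oil difference was 1.38-fold without the 3rd oil oviduct array, which read 6.998 (adjusted p = 0.084). Its call was also lost without the 1st or the 2nd oil uterus array (adjusted p = 0.11 and 0.0995), at log2 differences of 0.70 and 0.74. Col12a1 was the lower one (−0.63, adjusted p = 0.0006), and in oil mice it differed by −0.07 (adjusted p = 0.68). The oil and E2 comparisons share no arrays with each other, and their difference is the organ term tested above.

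**Figure D4:**
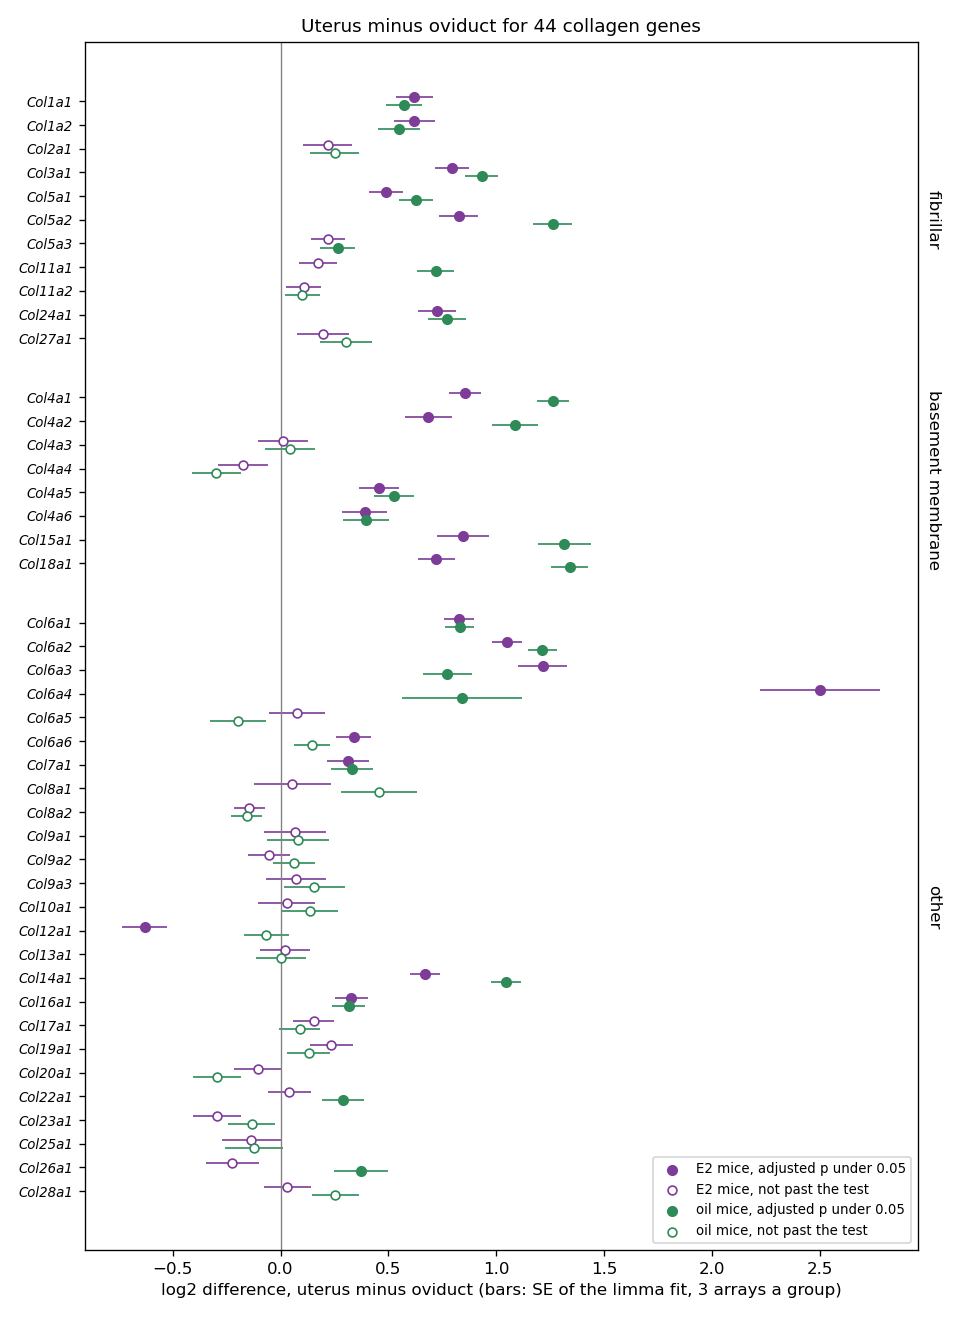
log2 difference of uterus minus oviduct for each of the 44 collagen genes, in E2 mice (purple) and oil mice (green), by class, with bars for the SE of the fit and filled points for adjusted p under 0.05. Most fibrillar and basement membrane points lie to the right of 0 in both, and Col6a4 in E2 mice lies farthest right.

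Genes that process collagen were measured to set the collagens beside the machinery that folds, trims and crosslinks them. Of 30 such genes, 13 were lower and 5 higher in E2 uterus, which is 43.3% and 16.7%, against 14.3% and 12.4% of all genes. The prolyl 3-hydroxylase P3h1 read 0.81 lower and its partner Crtap 0.81 lower, on the log2 scale (adjusted p = 5.69e-06 and 9.49e-05). Loxl1, which crosslinks fibres, was 0.75 lower (adjusted p = 0.0024), and Pcolce, which enhances cleavage of the C-terminal propeptide, was 0.72 lower (adjusted p = 0.00032). Serpinh1, the collagen chaperone HSP47, fell by 0.66 and P3h3 by 0.61. The galactosyltransferase Colgalt2 rose by 1.25 (adjusted p = 5.08e-05). The number called higher moved to between 1 and 3 when single uterine arrays were left out, with 8 lower without the 1st E2 uterus array. In the oviduct 0 of 30 passed limma's test, with 7 at an unadjusted p under 0.05. The difference of the effect between organs was called lower for 10 and higher for 1, which is 33.3% and 3.33%, against 5.77% and 5.71% of all genes.

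**Figure D5:**
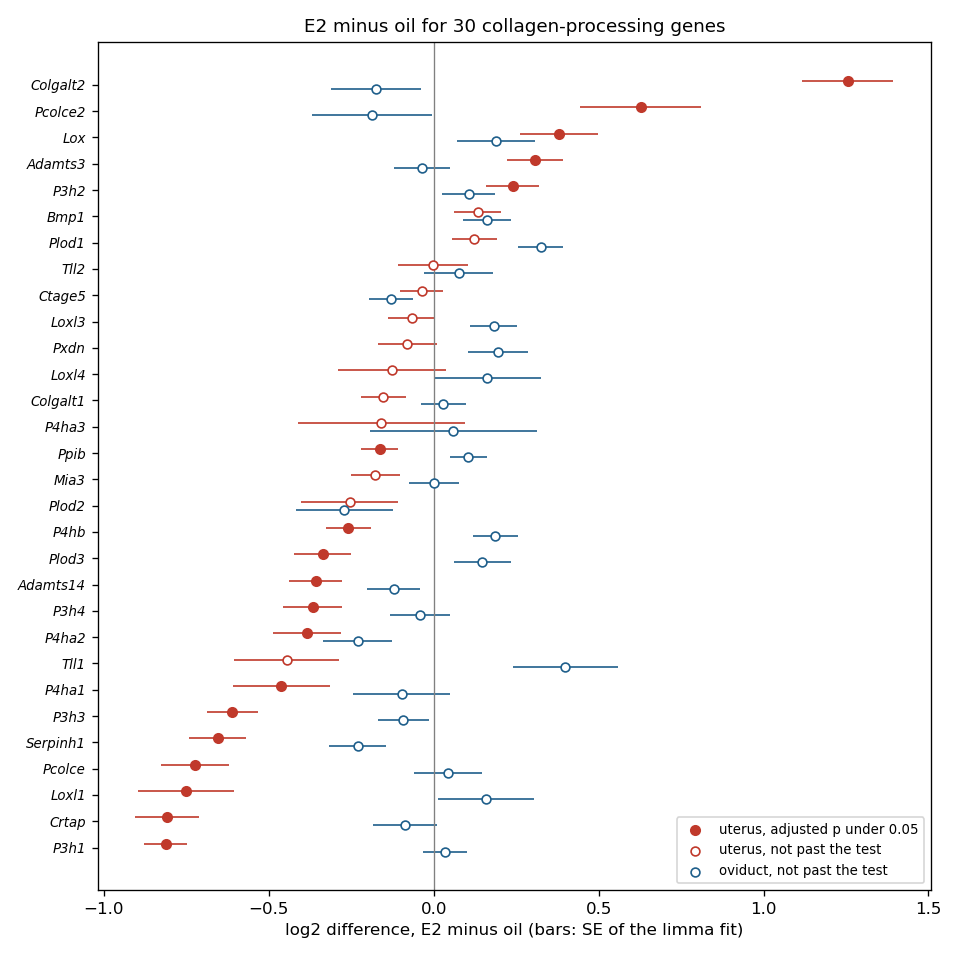
log2 difference of E2 minus oil for 30 collagen-processing genes, in uterus (red) and oviduct (blue), ordered by the uterine value, with bars for the SE of the fit. Filled points, with adjusted p under 0.05, occur only in uterus, 13 of them to the left of 0 and 5 to the right.

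The list for collagen breakdown also holds the inhibitor Timp1, so its counts do not give the direction of breakdown. Of its 17 genes 6 were called higher and 3 lower in E2 uterus, which is 35.3% and 17.6%, against 12.4% and 14.3% of all genes. Timp1, an inhibitor of metalloproteinases, was 1.17 lower (adjusted p = 0.0021), and the lysosomal protease Ctsl was 0.96 higher (adjusted p = 0.00013). Mmp14, a membrane-bound collagenase, rose by 0.57 and Ctsk, a collagen-degrading protease, by 0.53. Mmp9 differed by 0.64 (adjusted p = 0.016) and lost its call without the 3rd oil uterus or the 1st E2 uterus array (adjusted p = 0.063 and 0.069). Collagen receptors were higher in 4 of 9 and lower in 1, which is 44.4% and 11.1% beside the same shares of all genes. Itga11 and Itga2, collagen-binding integrin chains, were 0.67 and 0.63 higher, Ddr1 was 0.54 higher and Adgrg1 0.51 higher, and Ddr2 was 0.31 lower. In the oviduct 0 of 17 and 0 of 9 passed limma's test, with 2 and 0 at an unadjusted p under 0.05.

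Proteoglycans and other matrix partners were higher in 6 of 22 and lower in 2 in E2 uterus, which is 27.3% and 9.09%, against 12.4% and 14.3% of all genes. Prelp rose by 0.82 and Aspn by 0.63, both small leucine-rich proteins, while Fmod, which regulates fibril growth, fell by 0.59 and fibronectin, Fn1, by 0.55. Postn differed by 0.46 and lost its call in 4 of the fits without 1 uterine array (adjusted p = 0.052 to 0.069). In the oviduct 1 of 22 passed, Chad, higher by 1.21 (adjusted p = 0.00051). Among 20 basement membrane partners, 5 were higher and 5 lower, 25% each way beside the same shares of all genes. Lamb3 rose by 1.28 and Papln by 1.12, while the laminin chains Lama2 and Lamc3 fell by 1.13 and 0.90, and Nid1, which links laminin to type IV collagen, fell by 0.98. In the oviduct 0 of 20 passed limma's test, with 3 at an unadjusted p under 0.05.

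Markers of other cell types moved in E2 uterus as well, where 12.4% of all genes were higher and 14.3% lower. All 6 epithelial markers were higher, with a median of 1.11, and their mean level was 10.06 to 10.23 in E2 uterus against 8.69 to 8.94 in oil uterus. All 5 endothelial markers were lower (median −0.63), with a mean level of 9.07 to 9.17 in E2 uterus against 9.64 to 9.82 in oil uterus. Of 7 stromal fibroblast markers 4 were lower, Thy1 by 1.21 and Hand2 by 0.66, and their mean level was 9.84 to 9.96 in E2 uterus against 10.27 to 10.37 in oil uterus. Of 6 smooth muscle markers 2 were higher (median 0.38), with 11.64, 11.63 and 11.59 in E2 uterus against 11.18, 11.04 and 11.57 in oil uterus, where the 3rd array came close to the E2 arrays. Leukocyte markers were higher in 2 of 3, at 9.11 to 9.26 in E2 uterus against 7.91 to 8.46 in oil uterus. Mesothelial markers were higher in 2 of 3, at 7.27 to 7.996 in E2 uterus against 6.54 to 7.33 in oil uterus. None of these lists had a call in the oviduct. Between organs in oil mice, all 7 stromal and all 5 endothelial markers were higher in uterus and all 6 epithelial markers lower. Their part in the collagen differences was not tested.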

How the data were processed

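The deposited table holds an intensity for every probe set and array, made by the authors with RMA per the submitters' processing notes. For RMA no version is given in the sources used here. The deposited intensity values were linear (lowest 1.52), so log2 was taken first. Of 35556 probe sets, 21789 had 1 symbol, 1621 several and 12146 no listed gene. The probe set with the highest mean stood for a gene, without a filter. R 4.3.3 and limma 3.58.1 fitted the 4 groups together (lmFit, eBayes) over 19938 genes, with Benjamini-Hochberg adjustment and a threshold of 0.05. Figures used Python 3.11.15 and matplotlib 3.10.9. The steps were tested on simulated data. An exact test of 3 against 3 could not go below 0.1. The number of arrays limits the precision.

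The labels call the samples biological replicates, without saying which oviduct and uterus share a mouse. Deviations of same-numbered arrays from their group means correlated between −0.22 and 0.26, and for uterus with oviduct within a treatment between 0.0045 and 0.26. Not every correlation was over 0.1. Differently numbered arrays of uterus and oviduct within a treatment reached the same level. Their correlations ran from −0.28 (E2 uterus 1 with E2 oviduct 2) to 0.26 (oil uterus 1 with oil oviduct 2). The numbers were therefore not taken as pairs, and mice shared between uterus and oviduct arrays cannot be told from these values. Of 103 pathway genes 98 and of 48 marker genes 46 were measured. The members, lists and named-gene rule (members past the test, the 2 brightest of each class and the largest organ differences) were chosen with earlier results of these data known. The second probe sets of Col6a5 and Col6a6 fall outside that rule and were described after their values were seen. Serpinh1, P3h3 and Chad are named beyond the pathway genes that the rule sets, and were not followed under the alternatives. Alternatives covered normalization, background, variance, array weights, filters, probe sets and omitted arrays. Promoter windows and gene order are from RefSeq, assembly GRCm38.p6. Scan dates, detection calls and other doses were not used here.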

Additional observations from a re-analysis of the deposited data

Results flagged for a closer look

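For 8 collagen genes the E2 effect differed between uterus and oviduct by the term that tests the difference itself. The log2 difference of the effects, uterus minus oviduct, was 1.66 for Col6a4, −0.62 for Col18a1, −0.60 for Col26a1 and −0.56 for Col12a1. It was −0.55 for Col11a1, −0.44 for Col5a2, −0.41 for Col4a1 and −0.38 for Col14a1. For Col6a4, Col18a1 and Col11a1 the call held under all 23 alternatives, and for the other 5 it did not. The E2 difference was −0.25 in uterus and 0.16 in oviduct for Col4a1, −0.39 and 0.21 for Col26a1, and −0.32 and 0.12 for Col5a2. For Col12a1 it was 0.04 in uterus and 0.60 in oviduct, and for Col14a1 −0.95 and −0.57. With 3 arrays in each group, single arrays far from their group were not tested for.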

How the results depend on the processing

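The 65 gene values followed gave 1543 comparisons with alternatives, of which 1427 kept direction and side of the threshold and 0 reversed. In uterus 6 of 10 collagen calls held under every alternative, in oviduct 0 of 2, and for the difference of effects 3 of 8. Collagens higher in E2 uterus (1) became 2 under the replicate block and quantile normalization, and 3 with a filter on dim genes, the mean of all probe sets of a gene, or array weights; leaving out 1 array gave 1 to 3, and 5 to 10 for the 9 lower. Collagens higher in E2 oviduct (1) became 0 under the replicate block, a fit of the compared groups alone, adjustment over all probe sets and quantile normalization, and 0 on leaving out any array. The single lower one became 0 in the fit of the compared groups alone, with 0 to 1 on leaving out an array. For the difference of effects, the 7 lower became 4 under the replicate block and 2 to 5 without an array, and the 1 higher became 3 with the mean of all probe sets and 2 with array weights. Collagens lower in uterus than oviduct in oil mice (0) became 2 under the replicate block, fixed or random within treatment, and 1 with the dim filter, mean of probe sets, quantile normalization, a pseudocount of 16, a trended robust variance, array weights or both oil arrays numbered 3 left out, and 0 to 1 without an array. In E2 mice the 1 lower became 2 under the random replicate block within treatment, the compared groups alone, the dim filter, median centring, quantile normalization, array weights and both oil arrays numbered 3 left out, and 1 to 2 without an array. The numbers were not taken as pairs. The cause was not tested. Another scaling moved no median of all genes by 0.05 or more.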
